A study of Mus musculus with 28 samples.

Results

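The acid-base genes of the intercalated cell were examined in mouse kidney cortex. They were 10 genes picked by symbol for their known role in these cells, with earlier results of these data known. All 10 were found among the 30227 gene symbols of the kidney count table. They comprised 4 subunits of the vacuolar proton pump (Atp6v1b1, Atp6v1g3, Atp6v0a4 and Atp6v0d2), 3 anion exchangers (Slc4a1, Slc26a4 and Slc4a9), 2 ammonia channels (Rhbg and Rhcg) and the aquaporin Aqp6. The study compared signalling through a vitamin D receptor (Vdr) that cannot use its coactivator surface with absence of the receptor. RNA came from 6 wild-type (Vdr+/+, WT), 4 receptor-null (Vdr-/-, KO) and 4 Vdr AF2 (genotype delta AF2, AF2) kidneys of 8-week-old female mice, and all 3 groups ate the diet TD.96348, which is rich in calcium, phosphate and lactose. The AF2 domain is the part of the receptor that recruits coactivators. The sources used here give neither the deleted segments nor the strain background, and do not say that each library came from a separate animal. The p-values therefore measure the spread between these libraries, which may be partly technical.

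Intercalated cells are scattered along the connecting tubule and collecting duct and move acid or base into the urine. Type A cells pump protons into the urine with a vacuolar ATPase in the apical membrane and return bicarbonate to the blood through the basolateral exchanger AE1, the product of Slc4a1. Type B cells do the opposite: they secrete bicarbonate through pendrin, the product of Slc26a4, and carry the basolateral exchanger AE4, the product of Slc4a9. Ammonia, the main carrier of excreted acid, crosses collecting duct cells through the Rh channels Rhbg and Rhcg. The forkhead factor Foxi1 switches on much of this programme.

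Start-site sequence is shown for the 3 members whose upstream window held a motif searched for, since it is where Foxi1 or Vdr could in principle be read against the levels. The sequences are the 250 bases before the RefSeq start of GRCm38.p6, 5′ to 3′ on the gene's own strand, with the motif in capitals. The Aqp6 window is chr15:99600950-99601199 on the + strand, the Rhcg window chr7:79617658-79617907 on the - strand and the Atp6v1b1 window chr6:83742767-83743016 on the + strand. For Aqp6 and Atp6v1b1 the RefSeq start differs from the GENCODE gene start used for coordinates elsewhere (99601400 and 83742990). Motif positions below are counted from the RefSeq start.
Aqp6: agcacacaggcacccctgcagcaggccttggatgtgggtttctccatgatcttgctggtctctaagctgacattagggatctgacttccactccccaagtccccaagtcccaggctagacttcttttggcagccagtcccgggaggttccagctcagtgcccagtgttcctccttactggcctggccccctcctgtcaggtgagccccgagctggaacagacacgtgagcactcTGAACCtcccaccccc
Rhcg: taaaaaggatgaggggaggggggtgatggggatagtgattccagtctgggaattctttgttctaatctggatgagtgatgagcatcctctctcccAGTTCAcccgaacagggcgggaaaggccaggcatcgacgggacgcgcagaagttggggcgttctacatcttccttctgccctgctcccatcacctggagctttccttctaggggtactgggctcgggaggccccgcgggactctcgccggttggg
Atp6v1b1: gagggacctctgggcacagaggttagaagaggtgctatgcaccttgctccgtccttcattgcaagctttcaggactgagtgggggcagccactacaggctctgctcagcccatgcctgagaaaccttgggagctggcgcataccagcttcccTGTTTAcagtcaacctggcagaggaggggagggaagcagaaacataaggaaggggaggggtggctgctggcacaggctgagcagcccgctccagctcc
The capitals mark the Vdr-type receptor motif GGTTCA in Aqp6, on the opposite strand 16 to 11 bases before the start, the receptor motif AGTTCA in Rhcg, 155 to 150 bases before the start, and the forkhead core TGTTTA in Atp6v1b1, 98 to 93 bases before the start. On either strand, GGTTCA occurred in 8.85%, AGTTCA in 11.8% and TGTTTA in 12% of the 32851 promoters of the same length, and AGGTCA, found in none of the members' windows, in 14%. These hexamers are common, and a match is not a bound site. Paired receptor motifs spaced by 3 bases, the usual Vdr arrangement, were present in 13 of the 32851 promoters (0.0396%) and in 0 of the 6 member promoters that were matched (those of Atp6v1g3, Atp6v0a4 and Slc26a4 besides the 3 printed).

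Libraries were made from 3′ ends of transcripts, so a level is not divided by gene length. Kidney libraries held 3725648 to 6492228 counts, and every deposited count was even, so numbers of reads below are the counts divided by 2. Levels are given as CPM, the count scaled to a common library total. The members held 23 to 1102 reads per library each, and together 0.0641 to 0.111% of the counts. Vdr itself lay between 177 and 212 CPM in WT, between 7.94 and 22.1 in KO and between 64.8 and 91.9 in AF2. Both mutants were below WT; the AF2 label names the loss of a domain and does not state a transcript level. In WT the mean level ran from 13.6 CPM for Slc4a1 to 275 CPM for Atp6v0a4. Differences are log2 fold changes ± standard error from the edgeR quasi-likelihood test over 13502 genes with Benjamini-Hochberg adjustment, and a gene was called at an adjusted p under 0.05. All 10 members passed the filter on low counts. KO and AF2 were each compared with the same WT libraries, so the 2 comparisons are not independent.

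**Figure D1:**
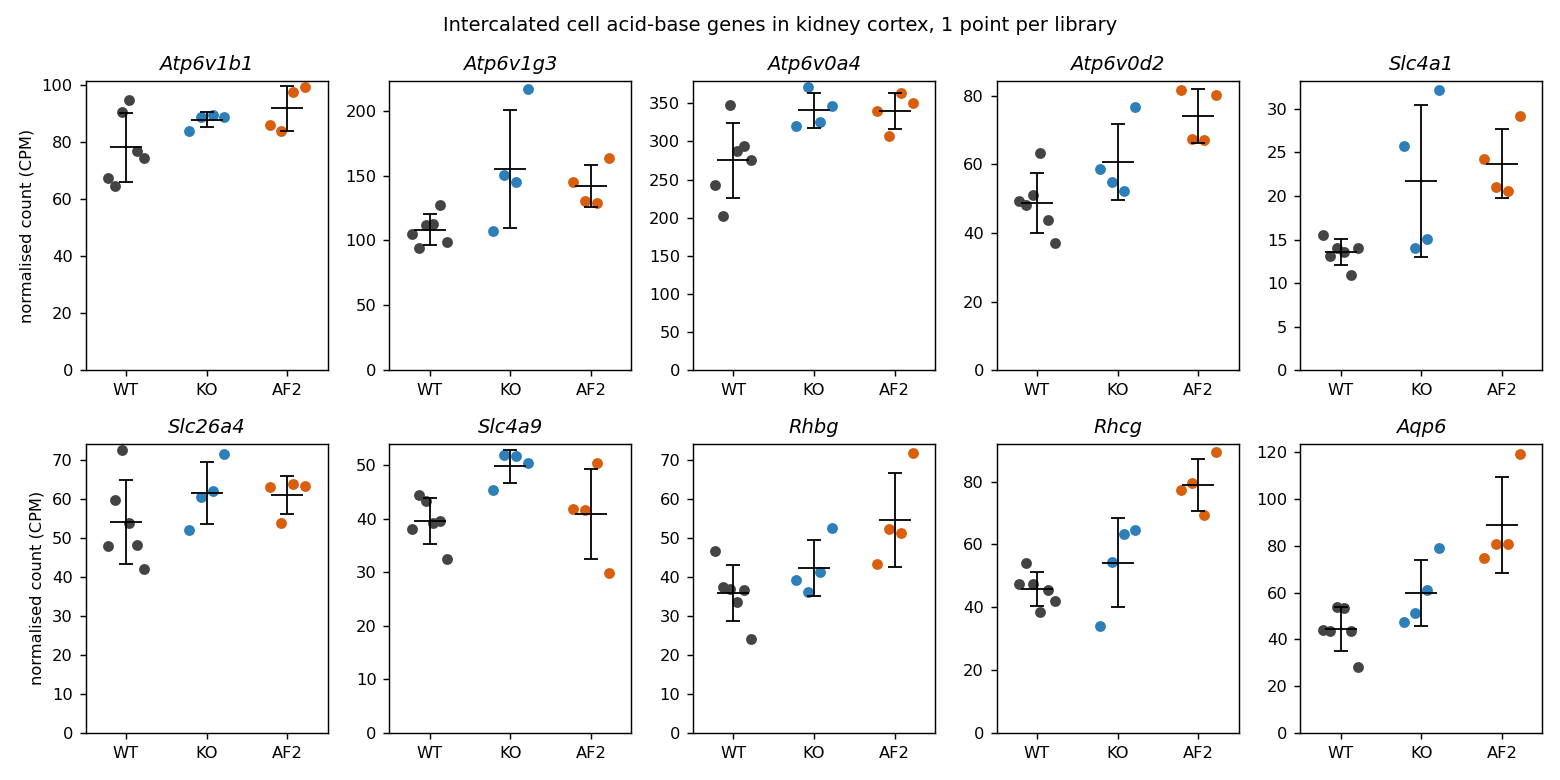
Level of each of the 10 members in CPM (vertical axis, starting at 0, separate scale per gene) in the 6 WT, 4 KO and 4 AF2 kidney libraries; each point is a library and each bar a group mean. Aqp6, Rhcg, Atp6v0d2, Slc4a1 and Atp6v1g3 have all AF2 points above all WT points, and Slc26a4 and Slc4a9 do not.

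In AF2 kidneys 5 members rose against WT: Aqp6, Rhcg, Atp6v0d2, Slc4a1 and Rhbg. None fell, and all 10 estimates were above 0, as were those of 50.6% of all tested genes. The count of 5 of 10 called, all higher, compares with 2.71% of all tested genes called and 1.08% called higher. The members were chosen with earlier results of these data known, so the shares over all genes are a description and not an independent test. At an unadjusted p under 0.05 there were 7 of 10, against 7.09% of all genes higher, and 5 of 10 had all AF2 libraries above all WT libraries, against 2.37% of all genes. The median log2 fold change of the members was 0.50 (range 0.04 to 1.00), against 0.0047 over all tested genes. AF2 4 was the highest AF2 library for 6 of the 10 members. Without AF2 4 the median was 0.37, and 7 of 10 had an unadjusted p under 0.05 in edgeR. Those called were both ammonia channels, the exchanger and the aquaporin of type A cells and 1 of the 4 pump subunits, and the 2 exchangers of type B cells were not called. DESeq2 and limma-voom also called 5 members. In bulk cortex, fewer cells of a type and less RNA per cell cannot be told apart, and neither can more cells and more RNA per cell.

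Aqp6, a vesicle-membrane channel of type A cells, changed most. Its level in WT ran from 28.0 CPM through a median of 43.8 to 53.8 CPM. The KO libraries held 47.4, 51.4, 61.1 and 79.0 CPM, and the AF2 libraries 74.6, 80.8, 81.0 and 119 CPM. AF2 lay above every WT library, while KO overlapped both other groups. The difference of AF2 from WT was 1.00 ± 0.17 (2.0-fold, 95% interval 1.57 to 2.54, adjusted p = 0.00072 in edgeR). The library AF2 4 was far above the other AF2 libraries, and without it the difference was still called, at 0.82 (adjusted p = 0.00236 in edgeR). Aqp6 is on chromosome 15 at 99601400 to 99605477 (mm10, + strand), 1.69 Mb from Vdr (97854425 to 97910630, - strand). Of the 42 tested genes within that distance on either side of Vdr, Aqp6 included, Aqp6 was the 1 gene called in AF2 (2.38%), and 0 were called in KO.

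Rhcg, the channel that releases ammonia across the apical membrane, was the next by p-value. It lies on chromosome 7 at 79593363 to 79617657 (mm10, - strand). WT libraries held 38.5 to 54.1 CPM with a median of 46.3. KO libraries held 34.0, 54.3, 63.4 and 64.7 CPM, and AF2 libraries 69.2, 77.1, 79.4 and 89.3 CPM. Here AF2 was separated from both WT and KO, and KO spread on both sides of WT. The rise in AF2 was 0.78 ± 0.14 (1.72-fold, interval 1.40 to 2.10, adjusted p = 0.000961 in edgeR). Rhbg, its basolateral relative, stood at 24.1 to 46.7 CPM in WT (median 36.8). In KO libraries it was 36.2, 39.1, 41.3 and 52.6, and in AF2 libraries 43.4, 51.2, 52.3 and 71.8 CPM. Rhbg groups overlapped, since AF2 1 lay below WT 1. Its rise of 0.61 ± 0.16 (1.52-fold, adjusted p = 0.0297 in edgeR) depended on single libraries: leaving out any of WT 2, WT 3, WT 4, WT 6, AF2 2, AF2 3 or AF2 4 ended the call, with adjusted p from 0.0508 to 0.165.

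The 4 proton pump subunits are the forms that intercalated cells use in place of, or beside, the forms found in every cell: B1 and G3 in the catalytic V1 sector, a4 and d2 in the membrane V0 sector. Of these, only Atp6v0d2 was called in AF2. It measured 37.0 to 63.4 CPM in WT (median 48.6). The KO values were 52.2, 54.7, 58.7 and 76.8, and the AF2 values 67.1, 67.3, 80.1 and 81.7 CPM. The gene lies on chromosome 4 at 19876841 to 19922605 (mm10, - strand). AF2 again lay above all WT libraries and overlapped KO. The difference was 0.60 ± 0.14 (1.51-fold, interval 1.25 to 1.84, adjusted p = 0.00981 in edgeR). Atp6v1g3 also had no overlap, with 93.9 to 127 CPM in WT (median 108) and 129, 130.4, 145 and 164 CPM in AF2, but its difference of 0.39 ± 0.14 was not called (adjusted p = 0.142 in edgeR). Atp6v0a4, the most abundant member by tags and a gene mutated in distal renal tubular acidosis, averaged 275 ± 49.3 CPM in WT (SD, n = 6) and 340.0 ± 23.9 in AF2 (SD, n = 4). Its AF2 values fell within the WT range at their lower end (0.31 ± 0.11, adjusted p = 0.173 in edgeR). Atp6v1b1, also a renal tubular acidosis gene, averaged 78.2 ± 12.2 and 91.9 ± 7.85 CPM in the same groups (0.23 ± 0.12, adjusted p = 0.353 in edgeR). Atp6v0a4 overlaps Tmem213 on the other strand, which had 5631 reads, and D630045J12Rik on its own strand, which had 1961. The use of strand in counting is not given, so the Atp6v0a4 level is the least certain of the subunits.

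The remaining subunits and accessory proteins of the pump, most of them widely expressed, were read beside those forms. Of 18 listed, 17 were tested and 0 were called in AF2 against WT, with 7 at an unadjusted p under 0.05 and a median difference of 0.12. The partner forms of the 4 members were Atp6v1b2 (0.33, adjusted p = 0.0874), Atp6v1g1 (-0.66, adjusted p = 0.173), Atp6v0a1 (0.30, adjusted p = 0.325) and Atp6v0d1 (-0.25, adjusted p = 0.398), all in edgeR. None was called, and their estimates had both signs. In KO 0 of the 17 were called, 0 had an unadjusted p under 0.05, and the median was -0.07.

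Slc4a1 was the least abundant member and the one that red cells also express. It measured 11.0 to 15.6 CPM in WT (median 13.8). The KO values were 13.99, 15.05, 25.7 and 32.1, and the AF2 values 20.6, 21.03, 24.2 and 29.1 CPM. The gene lies on chromosome 11 at 102348824 to 102366203 (mm10, - strand). AF2 was above all WT libraries, and KO split, with KO 2 and KO 3 inside the WT range and KO 1 and KO 4 well above it. The AF2 difference was 0.81 ± 0.21 (1.75-fold, interval 1.31 to 2.35, adjusted p = 0.0253 in edgeR). It rested on 23 to 85 reads per library and lost its call when any of WT 2, WT 3, WT 5, AF2 1 or AF2 4 was left out (adjusted p from 0.0511 to 0.0949). The kidney and red cell forms of AE1 differ at their start, which 3′ tags do not read.

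Slc4a1 followed the haemoglobin genes across libraries. The sum of the haemoglobin genes was 922 to 1532 CPM in WT, 1111 to 1596 in KO and 884 to 2373 in AF2, and none of these genes was called in any comparison. Over the 14 libraries log2 Slc4a1 correlated with log2 haemoglobin at r = 0.629 (permutation p = 0.0154, adjusted over 3 relations 0.0231) and rho = 0.618 (permutation p = 0.0215, adjusted 0.0323). Without AF2 3 and AF2 4, the 2 libraries farthest from the median haemoglobin level, r was 0.696 (permutation p = 0.0131), and after centring on the genotype means it was 0.565. Within the 2 runs of consecutive library codes that held mutants it was 0.58 and 0.682 (n = 6 each). With Alas2, the haem synthesis enzyme of red cells, in place of haemoglobin, r was 0.395 (permutation p = 0.167).

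Other red cell values were read beside Slc4a1. Of 13 red cell genes 10 were listed and 5 tested, none was called, and their sum was 928 to 1546 CPM in WT, 1121 to 1606 in KO and 893 to 2392 in AF2. The red cell blood group gene Rhd was at 0 in all 14 libraries. AF2 3, a single library, had the lowest haemoglobin of the 14 and an Slc4a1 level above every WT library. The duodenum, a tissue without intercalated cells, gave 0 Slc4a1 reads beside 11376 haemoglobin reads in its 14 libraries, which allows up to 2.64 Slc4a1 reads per 10000 haemoglobin reads (a count of 0 taken as up to 3 reads, counting error only). Kidney held 137 per 10000. Alas2 per 10000 haemoglobin reads was 31.6 in duodenum and 76.3 in kidney, so the ratio of these red cell messages differed between the 2 tissues. The part of red cells in the Slc4a1 difference was not tested. When the haemoglobin level was added to the fit as a covariate, Slc4a1 was 0.60 with adjusted p = 0.201 in edgeR, and Atp6v0d2 (0.49, adjusted p = 0.0857) and Rhbg (0.55, adjusted p = 0.143) were not called either, while Aqp6 (0.87, adjusted p = 0.00576) and Rhcg (0.75, adjusted p = 0.00779) were.

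Slc4a1 also moved with its fellow members, but mainly between genotypes. Its correlation with the mean of the other 9 was r = 0.711 (permutation p = 0.00487, adjusted 0.0146) and rho = 0.692 (permutation p = 0.00747, adjusted 0.0224), or 0.674 without WT 6 and AF2 4 (permutation p = 0.0184). It fell to 0.246 after centring on the genotype means, and was -0.058 among the 6 WT libraries, 0.466 and 0.86 within the 2 code runs. The other 9 members and haemoglobin correlated at r = 0.412 (permutation p = 0.143) and rho = 0.481 (permutation p = 0.0836).

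**Figure D2:**
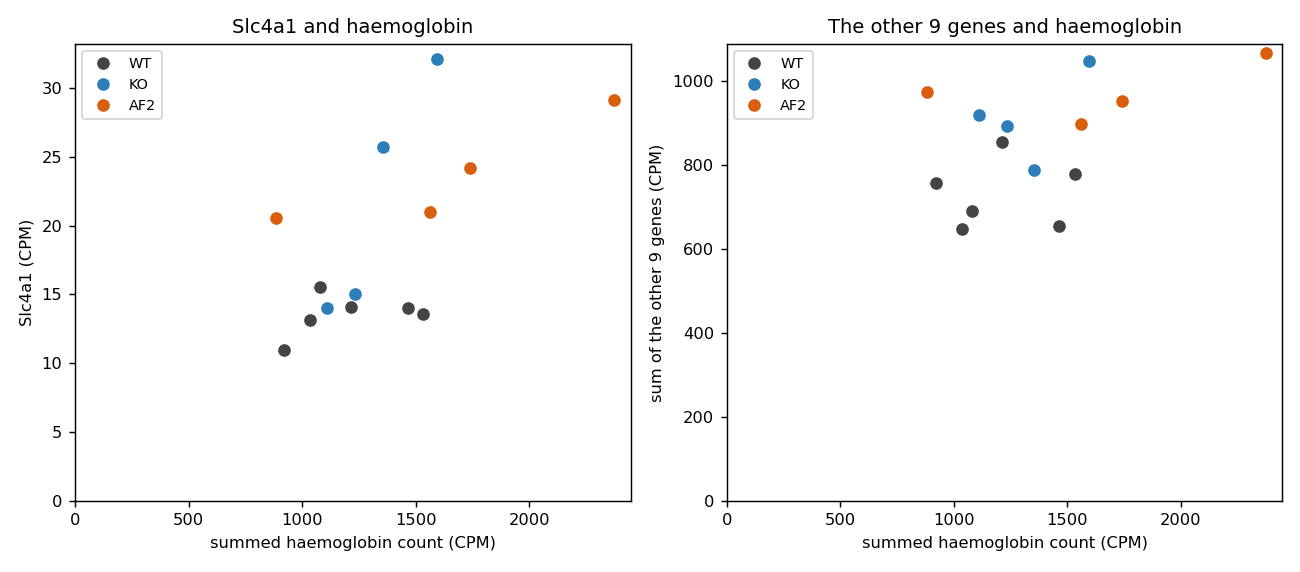
Slc4a1 in CPM (left panel, vertical axis) against the summed haemoglobin genes in CPM (horizontal axis) in the 14 kidney libraries, coloured by genotype. The right panel shows the sum of the other 9 members in CPM against the same haemoglobin sum. For Slc4a1 the pooled r on the log2 scale is 0.629. AF2 3 combines the lowest haemoglobin level with an Slc4a1 level above all 6 WT libraries.

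The type B exchangers did not pass the test in AF2. Slc26a4 averaged 54.1 ± 10.9 CPM in WT (SD, n = 6) and 61.0 ± 4.84 in AF2 (SD, n = 4), a fold of 1.12 with an interval of 0.927 to 1.36. Slc4a9 averaged 39.5 ± 4.25 and 40.9 ± 8.41 CPM, a fold of 1.03 with an interval of 0.845 to 1.26. Differences of up to about those upper limits are within what the data allow. Relative to pendrin within the same library, Aqp6 stood at 0.667 to 0.993 in WT, 0.850 to 1.11 in KO and 1.18 to 1.88 in AF2, and Rhcg at 0.652 to 1.00, 0.653 to 1.02 and 1.09 to 1.48. The ratios of Aqp6 and Rhcg separate AF2 from both other groups. Aqp6 and Rhcg were also the members with the smallest p in AF2 against WT. Ratios of the other called members to pendrin were not formed, and neither was the share of all genes without overlap. Slc4a9 relative to pendrin overlapped between all groups (0.597 to 0.822 in WT and 0.471 to 0.789 in AF2). The ratios are given as a description, without a test.

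**Figure D3:**
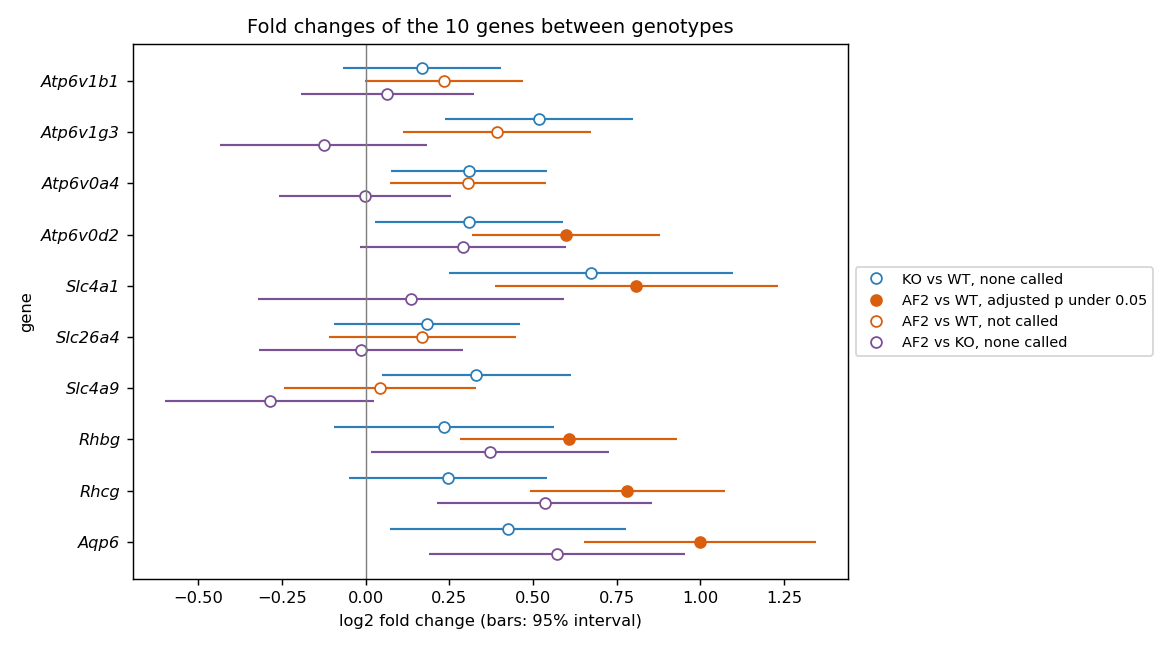
Log2 fold change of each member (horizontal axis) with its 95% interval, for KO against WT, AF2 against WT and AF2 against KO, in edgeR over 14 libraries; filled points are called at an adjusted p under 0.05. Filled points occur in AF2 against WT only, at Aqp6, Rhcg, Slc4a1, Rhbg and Atp6v0d2.

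In receptor-null kidneys no member was called against WT (0 of 10, with 0.844% of all tested genes called and 0.289% called higher), although all 10 estimates were positive, as were 49.4% of all genes. At an unadjusted p under 0.05 there were 6 of 10, all higher, against 5.33% of all genes higher. The median was 0.31 (range 0.17 to 0.67), against -0.0039 over all genes. Without KO 4 the count was 2 of 10 and the median 0.20, with the library code run as a term 2 of 10 and 0.21, and with only the WT libraries of the same run 1 of 10 and 0.21, with 8 of 10 estimates positive in the last 2 fits. Atp6v1g3 had the smallest adjusted p, with 107, 145, 150.2 and 217 CPM in KO (0.52 ± 0.14, adjusted p = 0.0683 in edgeR). DESeq2 called this 1 member (adjusted p = 0.0452) and limma-voom 0, but without KO 4, the highest library, it was 0.29 with adjusted p = 0.54 in edgeR. Slc4a9, with 32.5 to 44.5 CPM in WT (median 39.4) and 45.3, 50.3, 51.6 and 51.9 CPM in KO, was the 1 member without overlap (1.7% of all genes were higher without overlap). Its difference was 0.33 ± 0.14 (adjusted p = 0.359 in edgeR). KO 4 was the highest KO library for 7 of the 10 members and KO 1 the lowest for 7, so the group was internally spread.

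The direct comparison of the 2 mutants called no member either (0 of 10, with 0.333% of all genes called and 0.2% called higher). Of the estimates 6 of 10 were positive, as were 50% of all genes. The 3 at an unadjusted p under 0.05 (5.87% of all genes were higher) were Aqp6 (0.57 ± 0.18, adjusted p = 0.198), Rhcg (0.54 ± 0.16, adjusted p = 0.146) and Rhbg (0.37 ± 0.17, adjusted p = 0.418), all higher in AF2 in edgeR. Rhcg was the 1 member whose AF2 libraries were all above the KO libraries (3.55% of all genes were higher without overlap). DESeq2 and limma-voom called 0 members here as well. Slc4a9 had the most negative estimate, -0.29 ± 0.15 (adjusted p = 0.479). All KO libraries and all AF2 libraries lay in different runs of library codes, so genotype and run are separated only through the WT libraries of each run. With the run as a term in edgeR, Aqp6 was 1.15 (adjusted p = 0.71) and Slc26a4 0.47 (adjusted p = 0.917), and 0 members were called. The calls in AF2 and their absence in KO are therefore not shown to be a difference between the mutants.

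Library runs limited the AF2 comparison. All AF2 libraries carried codes consecutive with WT 5 and WT 6, and all KO libraries with WT 3 and WT 4, and what the codes record is not given. With the run as a term in edgeR, Aqp6 (1.31, adjusted p = 0.00248), Rhcg (0.85, adjusted p = 0.0367) and Atp6v0d2 (0.87, adjusted p = 0.0102) were called, and Slc4a1 (0.93, adjusted p = 0.184) and Rhbg (0.84, adjusted p = 0.066) were not. In that fit the AF2 differences rest on WT 5 and WT 6 as controls. WT 6 was the lowest WT library for 5 members. Among them were Aqp6 (28.0 CPM, 43.4 in WT 5) and Atp6v0d2 (37.0 CPM, 43.9 in WT 5), but not Rhcg. The main fit gave 1.00 for Aqp6 and 0.60 for Atp6v0d2, and without WT 6 it gave 0.90 and 0.53. With only WT 1 and WT 2 as controls, Aqp6 was called (adjusted p = 0.0236 in edgeR) and Rhcg (0.62, adjusted p = 0.108) and Atp6v0d2 (0.59, adjusted p = 0.12) were not. In all 14 fits that left out 1 library, Aqp6, Rhcg and Atp6v0d2 were called, with differences of 0.82 to 1.06, 0.71 to 0.84 and 0.53 to 0.69.

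**Figure D4:**
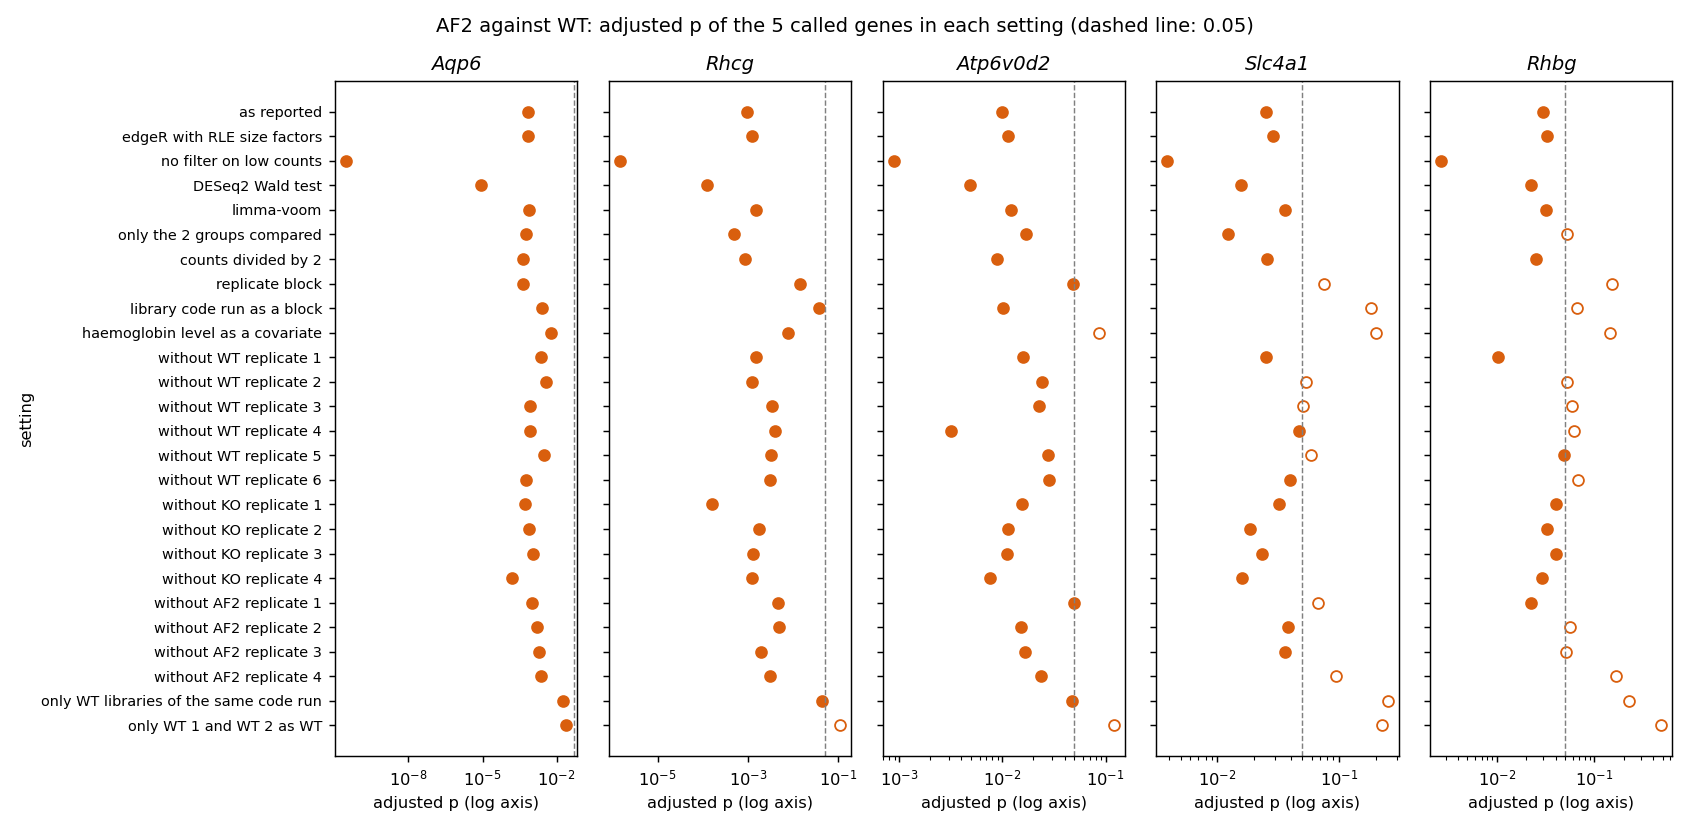
Adjusted p (horizontal log axis) of the 5 members called in AF2 against WT, a panel per member. Each row is a setting of the analysis, with the reported fit at the top. Filled points are below 0.05, which the dashed line marks. Aqp6 is below 0.05 throughout, and Slc4a1 and Rhbg cross it most often.

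Other genes of intercalated cells were not called. Of 17 listed, 14 were tested and 0 were called in either mutant, with 3 at an unadjusted p under 0.05 in KO and 3 in AF2, and medians of 0.23 in KO and 0.19 in AF2. Foxi1 averaged 14.9 ± 3.40 CPM in WT (SD, n = 6), 16.8 ± 8.21 in KO and 14.5 ± 2.40 in AF2 (SD, n = 4), with differences of 0.18 (adjusted p = 0.853) and -0.05 (adjusted p = 0.952) in edgeR. The forkhead factor was thus measured in every group, and its level did not pass the test. Of the 11 markers of principal cells, the neighbours of intercalated cells that take up sodium and water, 1 was called in AF2: the water channel Aqp4 fell from 38.9 to 14.8 CPM (-1.41, adjusted p = 0.00147 in edgeR), and their median was 0.09.

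Markers of other nephron segments also differed between the mutants and WT, first in AF2. Among podocyte markers, the actin-binding gene Synpo rose (0.71, adjusted p = 0.00133), and the summed level of Nphs1, Podxl, Synpo and Wt1 was 191 to 259 CPM in WT, 229.9 to 244 in KO and 275 to 328 in AF2. Of 5 thick ascending limb markers 2 rose, the urinary protein Umod (0.52, adjusted p = 0.00566) and the salt transporter Slc12a1 (0.43, adjusted p = 0.0203), with a summed level of 2502 to 3183 CPM in WT and 3603 to 4117 CPM in AF2. Of 7 proximal tubule markers 1 fell, the citrate and succinate transporter Slc13a3 (-0.70, adjusted p = 0.000473), with sums of 7228 to 8425 and 7041 to 8084 CPM. In these 3 lists all p-values are from edgeR. Of 5 macrophage markers, Csf1r rose (0.71, adjusted p = 0.00282 in edgeR). The macrophage estimates had both signs (median 0.15, range -0.59 to 0.71, 3 of 5 positive), and 0 of 5 endothelial markers were called. The summed inner medulla list was 4.29 to 16.7 CPM in WT and 12.4 to 29.2 CPM in AF2, with 0 of 2 tested called. In KO, Slc12a1 (0.45, adjusted p = 0.0356 in edgeR) and the proximal tubule enzyme Miox (0.53, adjusted p = 0.0194 in edgeR) rose against WT. Miox went against most of its list, whose KO median was -0.23 (range -0.46 to 0.53, 2 of 7 positive). The podocyte and thick ascending limb sums did not overlap between AF2 and WT, and the part of tissue make-up in the members' differences was not tested.

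Genes whose levels followed the members most closely were found from the mean standardised level of the 9 members other than Slc4a1, over 14 libraries and 13275 candidates. They were the chromatin gene Setd5 (r = 0.947), the small GTPase Rab12 (0.914), the elongation factor methyltransferase Eef1akmt3 (0.909), the membrane skeleton gene Epb41 (0.899), the ribosomal protein gene Rps15a (0.882) and the retinaldehyde reductase Dhrs3 (0.882). Centred on the genotype means, r was 0.897 for Setd5 and 0.893 for Epb41, and 0.629 to 0.769 for the other 4. Libraries share depth and composition, so these correlations are descriptions. Eef1akmt3 (127031004 to 127041513 on chromosome 10, - strand) overlaps Mettl1 on the other strand (963 reads), and whether Mettl1 reads count in it was not tested. Cyp27b1, the enzyme that activates vitamin D, lies nearby without overlapping it (127048250 to 127053006, + strand). Eef1akmt3 rose in both mutants, from a mean of 4.72 CPM in WT to 26.8 in KO (adjusted p = 0.000963 in edgeR) and 49.2 in AF2 (adjusted p = 1.19e-05 in edgeR). Dhrs3 (0.64, adjusted p = 0.000298 in edgeR) and Rab12 (0.48, adjusted p = 0.0352 in edgeR) rose in AF2 and were not called in KO (adjusted p = 0.0843 and 0.16).

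In duodenum, 9 of the 10 members were listed. Atp6v1b1, Atp6v1g3, Slc4a1 and Rhcg had 0 reads in all 14 libraries, and over all of them Rhbg had 222, Atp6v0d2 172, Atp6v0a4 142, Slc26a4 20 and Slc4a9 10 reads.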

How the data were processed

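Kidney cortex (14 libraries) and duodenum as a reference tissue were read from 2 tables of raw counts per gene symbol, which the authors deposited without normalisation, per the file headers. Libraries came from TRIzol-extracted total RNA and a QuantSeq 3′ kit, per the labels' protocols. The submitters' processing notes name mm10 and limma 3.34.9, without a role. The sources used here name no aligner, counter or use of strand. Sex, age and diet come from the file headers and series text, genotype from the sample titles, and 0 sample columns went unused.

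Counts were fitted in edgeR 4.0.16 (R 4.3.3): all 14 kidney libraries, genotype only, filterByExpr by group, TMM scaling, robust quasi-likelihood F test, two-sided, Benjamini-Hochberg adjustment. The code was tested on simulated data. Standard errors were derived from log2 fold change and F, with 95% intervals. CPM use library totals over the genes that passed the filter, scaled by the TMM factors. Libraries of a group differed beyond sampling noise (smallest chi-square per degree of freedom 1.96). Correlations used log2 CPM (prior count 2) and 100000 permutations. Coordinates are GENCODE vM21 on mm10.

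The members and all lists were chosen with earlier results of these data known. Genes named were the members, called list genes (at most 4 per list and contrast), Foxi1, the partner pump subunits and the 6 genes most like the members. Some listed markers are not reported here. Alternatives covered normalisation (DESeq2 1.42.0, limma 3.58.1 voom), filtering, covariates, blocks and leaving out each library. Same-numbered libraries of different genotypes were checked in 12 pairs of deviations (r from -0.0361 to 0.171, 1 over 0.1). Pairs that shared a code run had a median r of -0.0014, so low values cannot exclude pairing. The main fit used no pairing.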

Additional observations from a re-analysis of the deposited data

Results flagged for a closer look

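Of 30 sets of values (10 genes in 3 groups), 3 held a library whose gap to the nearest was large beside the group's range, where chance gives about 1 in 20. In AF2, Aqp6 was 119 CPM in AF2 4 and 81.0 in the nearest library, a gap of 0.857 of the group's range. In AF2, Slc26a4 was 53.7 CPM in AF2 2 and 63.0 in the nearest (0.924 of the range). In KO, Atp6v1b1 was 83.9 CPM in KO 1 and 88.9 in the nearest (0.857 of the range), a small gap in a group whose SD was 3.01% of its mean.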

How the results depend on the processing

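Of the members' single differences under other settings, 675 kept direction and side of the threshold, 26 lost a call, 8 gained one and 21 changed sign. In KO against WT the 114 called genes became 252 with no filter, 220 in DESeq2, 177 with the 2 groups alone, 25 with the code run as block, 73 with WT of the same run, 406 with WT 1 and WT 2 only and 38 to 206 without 1 library. The members called (0) became 1 with no filter, in DESeq2 and with WT 1 and WT 2, and 0 to 1 without 1 library. In AF2 against WT the 366 called became 590 with no filter, 121 with the code run, 228 with haemoglobin as covariate, 91 with same-run WT, 180 with WT 1 and WT 2 and 294 to 365 without 1 library. The 5 members called became 3 with the replicate block (Slc4a1 0.73, adjusted p = 0.0749, and Rhbg 0.48, adjusted p = 0.151, lost), 3 with the code run, 2 with haemoglobin, 3 with same-run WT, 1 with WT 1 and WT 2 and 3 to 5 without 1 library. In AF2 against KO the 45 called became 193 with no filter, 151 in DESeq2, 1 with the code run and 22 to 78 without 1 library, and the members called 2 with no filter. The Slc4a1 relation with Alas2 in place of haemoglobin was 0.395. Signs turned as follows. In AF2 against WT, Slc4a9 was -0.0248 with the replicate block, -0.0273 with WT 1 and WT 2, and -0.0768 to 0.166 without 1 library. In KO against WT, Atp6v1b1 was -0.0776 and Slc26a4 -0.0376 with the code run, and -0.0784 and -0.0379 with same-run WT. In AF2 against KO, Atp6v0a4 was 0.0154 and Slc26a4 0.0024 with halved counts, and 0.154 and 0.471 with the code run. Without 1 library, Atp6v0a4 ran from -0.0414 to 0.0583, Slc26a4 from -0.0941 to 0.0812, Slc4a1 from -0.0113 to 0.408 and Atp6v1g3 from -0.276 to 0.0947. The causes were not tested. Slc4a1, at 23 to 85 reads, is the member most limited by depth.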
